A study of Homo sapiens with 8 samples.

Results

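The heat shock response genes examined here are 10 human genes chosen by name: the transcription factor gene HSF1 and the chaperone or co-chaperone genes HSPA1A, HSPA1B, HSPA8, HSP90AA1, HSPH1, DNAJB1, HSPB1, BAG3 and HSPD1. They are 10 of the 78932 Ensembl gene identifiers in the count tables, and 7 of them were among the 12618 genes abundant enough to be tested. Their counts came from HCT116, a human colorectal cancer line, which carried a dTAG degradation tag on NUDT21, the small subunit of the RNA cleavage factor CFIm. The labels do not say whether the tagged line was 1 clone. In 4 libraries the cells had been given DMSO, a solvent, with JTE-607, an inhibitor of the pre-mRNA nuclease CPSF73. In the other 4 they had been given dTAGV1, a degrader that recruits an E3 ligase to the tag, with JTE-607. JTE-607 was thus common to both groups, and cells without JTE-607 and heat-treated cells are not analysed here. Doses and times are not given in the labels. The comparison asked how RNA levels differ with dTAGV1 in cells that also receive JTE-607.

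The heat shock response is a conserved reaction to misfolded protein. HSF1 is held inactive by chaperones in unstressed cells. When unfolded protein engages those chaperones, HSF1 forms trimers, binds heat shock elements in promoters and raises transcription of chaperone genes. Cancer cells often keep part of this programme active without heat, and HSP90, HSP70 and their partners also fold many proteins in unstressed cells.

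A heat shock element is built from inverted GAA and TTC units spaced by any pair of bases. Promoter windows, from RefSeq on GRCh38.p14, were found for 9 of the 10 members, all but HSF1. In the 250 bases before the start, 2 adjoining units (GAANNTTC or TTCNNGAA, each its own reverse complement) were present in 7 of the 9. A gene was counted when any of its windows matched. HSP90AA1, DNAJB1 and HSPD1 had several windows, for different starts, and not all of those matched. The same words were found in 11.6% of all promoter windows and in 11.6% of the tested genes with a window. A run of 3 units (GAANNTTC then NNGAA, or its reverse complement, TTCNNGAA then NNTTC, so that each holds both shorter words) was found in 3 of the 9, HSPA8, HSP90AA1 and HSPD1. It was found in 0.441% of all windows and 0.466% of tested genes. All matches in the 250 bases are printed, overlapping ones as 1 run, because heat shock elements are the sequence feature that defines the response. Capitals mark the GAA and TTC units, and each sequence reads 5′ to 3′ on the strand of its gene.
HSPA1A (chr6:31815426-31815455, plus strand): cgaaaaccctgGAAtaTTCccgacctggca
HSPA1B (chr6:31827622-31827651, plus strand): cgaaacccctgGAAtaTTCccgacctggca
HSPA8, distal (chr11:123062346-123062374, minus strand): gcgagcttGAAagTTCcaGAAcgctgcgg
HSPA8, proximal (chr11:123062171-123062199, minus strand): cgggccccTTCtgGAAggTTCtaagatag
HSP90AA1, distal (chr14:102087112-102087140, minus strand): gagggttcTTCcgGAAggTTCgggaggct
HSP90AA1, proximal (chr14:102087094-102087123, minus strand): gttcgggaggcTTCtgGAAaaagcgccgcg
DNAJB1, distal (chr19:14518456-14518485, minus strand): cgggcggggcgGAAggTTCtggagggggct
DNAJB1, proximal (chr19:14518426-14518455, minus strand): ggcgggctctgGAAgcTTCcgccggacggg
HSPB1 (chr7:76302480-76302509, plus strand): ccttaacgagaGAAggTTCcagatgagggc
HSPD1 (chr2:197500062-197500090, minus strand): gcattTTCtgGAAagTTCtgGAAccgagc
HSPH1 and BAG3 had no match in their windows, which says only that these letters are not there. HSF1 binding is not analysed here, so these words describe the sequences alone.

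Libraries held 3447842 to 4291256 reads counted to genes on the gene strand, from 8649238 to 9977205 reads in all. NUDT21, the tagged gene, was lower with dTAGV1 in every library, falling from 32.2 ± 2.81 to 8.25 ± 2.62 CPM (SD, n = 4 each; log2 fold change -1.95). CPM is counts per 1000000 after TMM scaling. The degrader is directed at the tagged protein, which is not analysed here, so the RNA level of NUDT21 does not measure its loss. Of 9 epithelial colon markers, 6 (EPCAM, KRT8, KRT18, KRT19, CDH1 and CDX2) exceeded 10 CPM in every library. CDX1 was listed at 0 and VIL1 and LGALS4 were nearly so. Of 9 markers of other cell types, COL1A1 alone exceeded 10 CPM throughout, at 11.2 to 19.9 CPM. The summed level of the epithelial markers was 1575 to 1831 CPM with DMSO and 1253 to 1353 CPM with dTAGV1, and that of the other markers 18.1 to 24.6 and 12.1 to 17.9 CPM. Both sums were thus lower with dTAGV1 without overlap, and they moved in the direction of the heat shock members that fell. Uniquely mapped reads outside any gene of the right strand made up 18.9% to 21.7% of all reads with DMSO and 23.0% to 25.9% with dTAGV1. The part of these differences in the results was not tested. The labels do not say that libraries came from separate cultures, so p-values measure the spread between these libraries, which may be technical. In bulk RNA, fewer cells of a kind and less RNA per cell cannot be told apart.

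Most of the tested heat shock members had lower RNA levels in cells given dTAGV1 with JTE-607 than in cells given DMSO with JTE-607. Of the 7 tested members, each above 10 CPM in all 8 libraries, 6 fell and none rose, and the largest decreases were in the co-chaperone DNAJB1, which fell by 53.4%, and HSP90AA1, which fell by 47.65%. Among all tested genes, 57.9% were called in either direction and 28.5% were lower (edgeR's quasi-likelihood F test, with p adjusted by Benjamini-Hochberg, BH, under 0.05). The median log2 fold change of the 7 was -0.53, against 0.01 for all 12618 tested genes. For 4 of the 7 (HSP90AA1, DNAJB1, HSPB1 and HSPD1) every dTAGV1 library lay below every DMSO library, which was so for 25.1% of all tested genes, while 50.9% had no overlap in either direction. BAG3 was not called. All 10 members together took 0.552% ± 0.0315 (SD, n = 4) of gene counts with DMSO and 0.328% ± 0.00617 (SD, n = 4) with dTAGV1. The members were 0.509% to 0.577% of the counts in the DMSO libraries and 0.319% to 0.333% in the dTAGV1 libraries, which do not overlap.

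**Figure D1:**
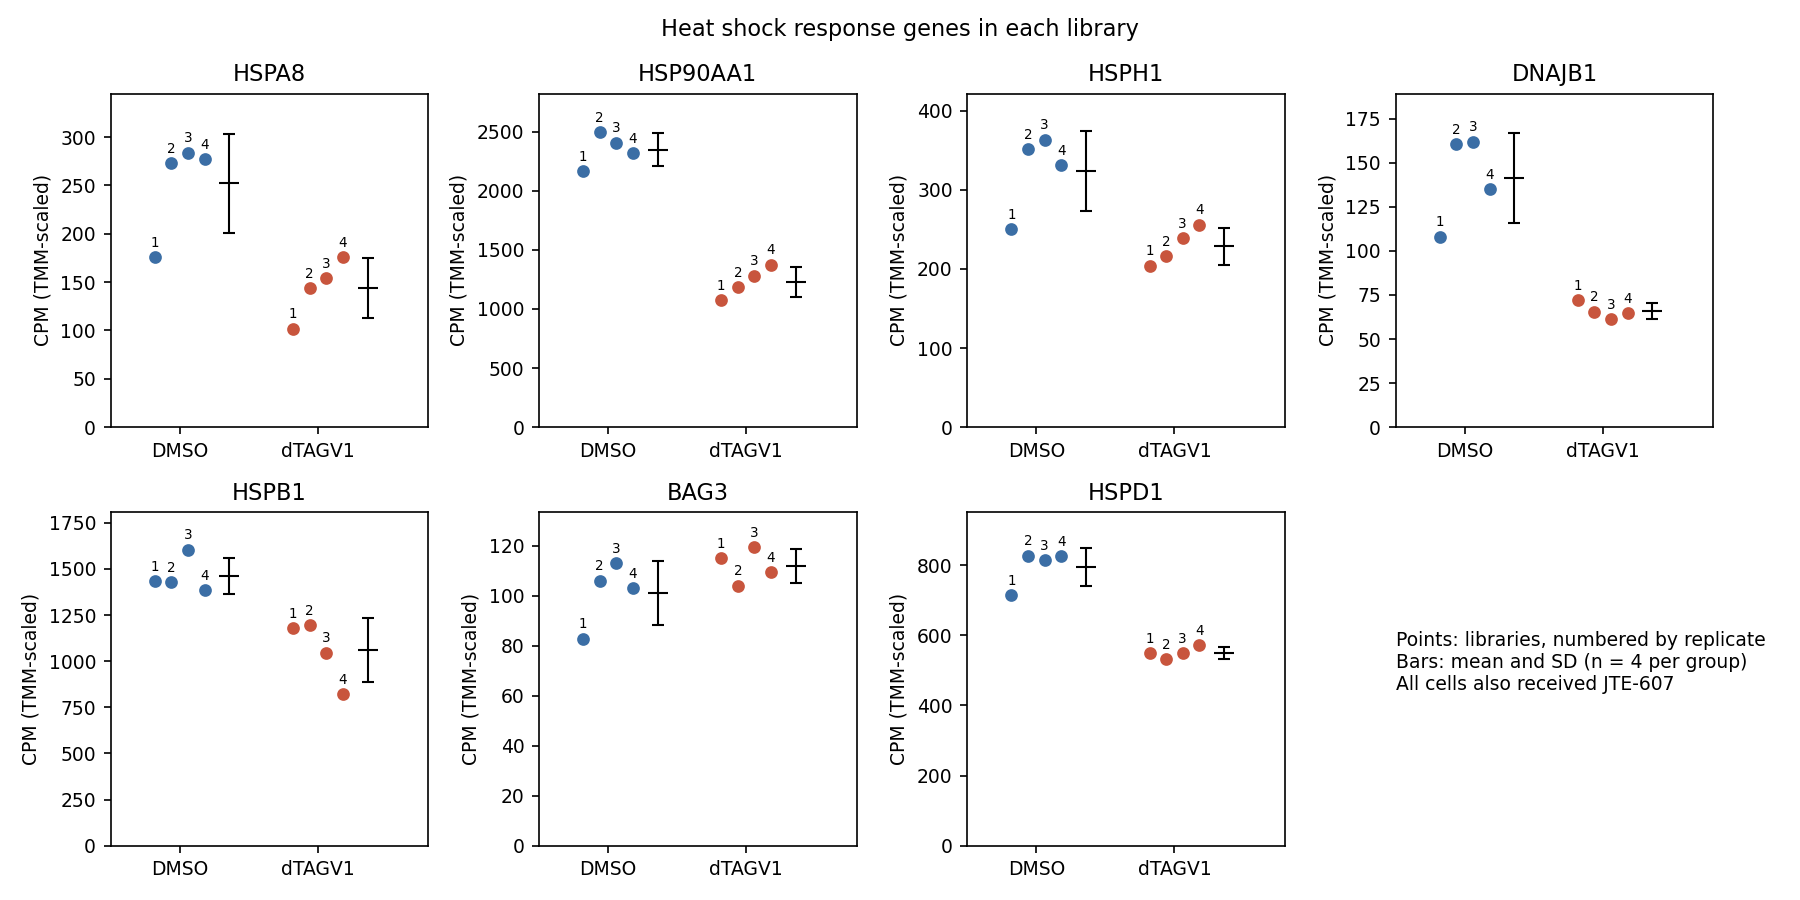
Levels of the 7 tested heat shock response genes in CPM (TMM-scaled, axes from 0) for each of 8 libraries, with points numbered by replicate and bars for mean and SD (n = 4 per group). The groups are apart for HSP90AA1, DNAJB1, HSPB1 and HSPD1, meet at 176 CPM for HSPA8, and overlap for HSPH1 and BAG3.

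The HSP70 machinery was examined first. HSPA8 (ENSG00000109971; GENCODE 29 on GRCh38, chromosome 11, 123057489 to 123063230, minus strand, protein-coding) encodes HSC70, the constitutive cytosolic HSP70. It measured 176, 273, 284 and 277 CPM in DMSO replicates 1 to 4 and 102, 144, 154 and 176 CPM in dTAGV1 replicates 1 to 4. DMSO replicate 1 stood below the other 3 DMSO libraries and level with the highest dTAGV1 library, so the groups met. HSPA8 fell by 0.81 on the log2 scale (SE 0.21; edgeR, BH-adjusted p = 0.0103), the least precise of the 6 changes. Without DMSO replicate 1 the log2 fold change was -0.95 (edgeR, BH-adjusted p = 1.98e-05). With replicate number as a block it was -0.81 with a smaller SE of 0.07 (edgeR, BH-adjusted p = 3.68e-09). The labels do not say that equal numbers are pairs, and the main fit did not take them as pairs. Reads of HSPA8 can be shared with its pseudogenes: 3.99% of the 50-base words in the last 500 bases of its transcript also occur in another annotated gene, mostly HSPA8P5.

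DNAJB1 (ENSG00000132002; chromosome 19, 14514770 to 14529770, minus strand, protein-coding) encodes a J-domain protein that delivers clients to HSP70 and stimulates its ATPase. Its levels were 108, 160.4, 162 and 135 CPM with DMSO and 72.0, 65.6, 61.3 and 64.8 CPM with dTAGV1. All 4 dTAGV1 libraries lay within a narrow range below the lowest DMSO library. DNAJB1 had the largest change among the members, a log2 fold change of -1.10 (SE 0.11; edgeR, BH-adjusted p = 2.08e-08). Of all tested genes, 7.81% had a log2 fold change as low or lower. It overlaps TECR on the other strand, and its own opposite-strand counts were 7 in the 8 libraries against 3167 on its strand.

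HSPH1 (ENSG00000120694; chromosome 13, 31134974 to 31162388, minus strand, protein-coding) encodes HSP105, an HSP110 protein that exchanges nucleotide on HSP70 and helps to pull aggregates apart. It measured 249.8, 351, 363 and 331 CPM with DMSO and 204, 216, 239 and 256 CPM with dTAGV1. DMSO replicate 1 lay below dTAGV1 replicate 4, so the groups overlapped in that pair of libraries. The log2 fold change was -0.50 (SE 0.10; edgeR, BH-adjusted p = 0.000361).

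BAG3 (ENSG00000151929; chromosome 10, 119651370 to 119677819, plus strand, protein-coding) encodes a stress-inducible exchange factor that links HSP70 to small heat shock proteins and to selective autophagy. It measured 82.8, 106, 113 and 103 CPM with DMSO and 115, 104, 119.6 and 109.5 CPM with dTAGV1. Apart from the low DMSO replicate 1, the groups covered much the same range. Its log2 fold change was 0.14 (SE 0.09; edgeR, BH-adjusted p = 0.183). Without DMSO replicate 1 it was 0.05 (edgeR, BH-adjusted p = 0.612).

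BAG3 and HSPA8 encode partners in a complex, and the ratio of their counts within a library needs no scaling between libraries. BAG3 had 0.471, 0.39, 0.4 and 0.37 counts per HSPA8 count in the 4 DMSO libraries, by number, and 1.12, 0.723, 0.775 and 0.623 in the 4 dTAGV1 libraries. Every dTAGV1 library had a higher ratio than every DMSO library, a log2 difference of 0.96. This ratio and the other ratios given here were chosen after the genes' values were seen, so they describe those values and no p-value is given.

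HSP90AA1 (ENSG00000080824; chromosome 14, 102080738 to 102139699, minus strand, protein-coding) encodes the inducible cytosolic form of HSP90, a chaperone that matures kinases and nuclear receptors. It measured 2167, 2495, 2407 and 2319 CPM with DMSO and 1073, 1184, 1282 and 1374 CPM with dTAGV1. The highest dTAGV1 library lay well below the lowest DMSO library. HSP90AA1 fell by 0.93 on the log2 scale (SE 0.07; edgeR, BH-adjusted p = 1.02e-10). It made up 43.3% of all counts of the 10 members with DMSO and 36.5% with dTAGV1.

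HSP90AB1, the constitutive cytosolic form and no member, measured 2217 ± 48.2 CPM with DMSO and 2091 ± 110.3 CPM with dTAGV1 (SD, n = 4 each). It was not called (log2 fold change -0.08; edgeR, BH-adjusted p = 0.255). Among the DMSO libraries, by number, there were 1.00, 1.14, 1.06 and 1.03 HSP90AA1 counts per HSP90AB1 count. Among the dTAGV1 libraries there were 0.531, 0.575, 0.569 and 0.677. The groups did not overlap, and the log2 difference was -0.85. HSP90AB1 was paired with HSP90AA1 after both values were seen, so this restates their fold changes within each library.

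**Figure D2:**
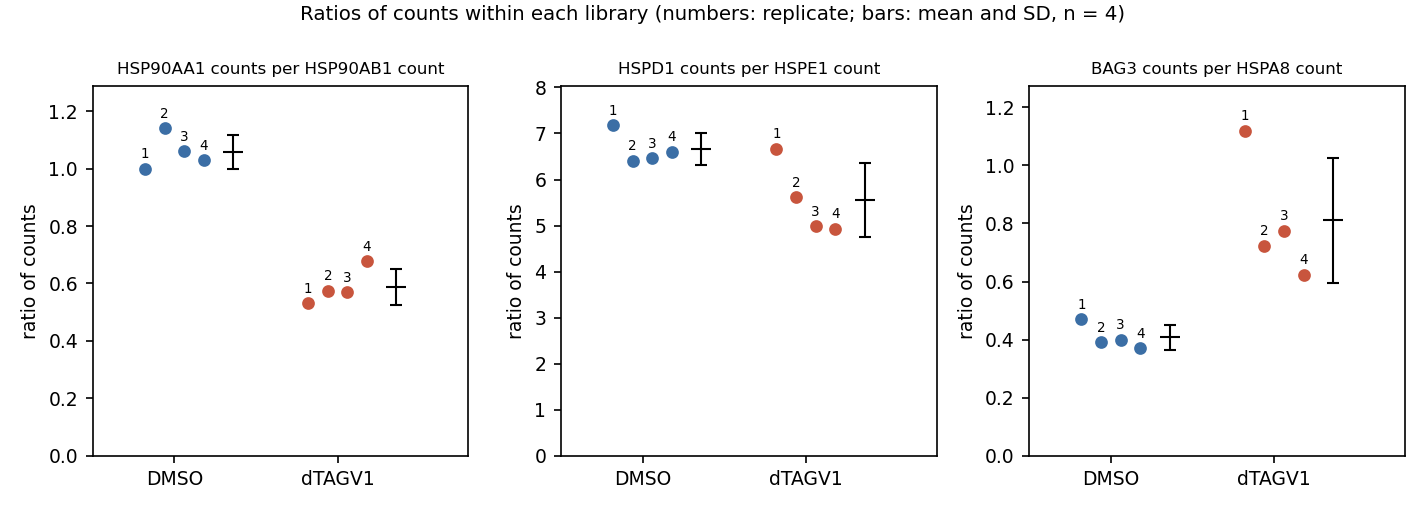
Ratios of gene-strand counts of 2 genes within each of 8 libraries (vertical axes from 0), for HSP90AA1 per HSP90AB1, HSPD1 per HSPE1 and BAG3 per HSPA8, with mean and SD (n = 4 per group). The first ratio is 1.06 on average with DMSO and 0.588 with dTAGV1, the second overlaps between the groups, and the third is 0.408 and 0.811.

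HSPB1 (ENSG00000106211; chromosome 7, 76302544 to 76304295, plus strand, protein-coding) encodes HSP27, a small heat shock protein that holds unfolded proteins in a refoldable state without ATP. It measured 1435, 1429, 1605 and 1384 CPM with DMSO and 1179, 1195, 1045 and 822 CPM with dTAGV1. The groups did not overlap, and dTAGV1 replicate 4 was the lowest of all libraries. HSPB1 fell by 0.47 on the log2 scale (SE 0.09; edgeR, BH-adjusted p = 0.000362). The call needs the count on the gene strand: irrespective of strand there were 235 counts of HSPB1 in the 8 libraries instead of 37924. The log2 fold change of those was -0.11 (edgeR, BH-adjusted p = 0.731). The opposite strand held 5 counts. Nearly all gene-strand reads are thus missing from the count irrespective of strand, and its 235 counts are no second measure of the level. Of the 50-base words near its 3′ end, 21.7% are shared with the pseudogene HSPB1P1, so its level is uncertain.

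HSPD1 (ENSG00000144381; chromosome 2, 197486581 to 197516737, minus strand, protein-coding) encodes HSP60, the chaperonin of the mitochondrial matrix. It measured 714, 827, 813 and 825 CPM with DMSO and 548, 532, 548 and 572 CPM with dTAGV1. The dTAGV1 libraries lay close together and below all DMSO libraries. HSPD1 fell by 0.53 on the log2 scale (SE 0.07; edgeR, BH-adjusted p = 2.93e-07).

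HSPE1, which encodes the lid of the HSP60 chaperonin and is transcribed away from HSPD1 on the other strand, measured 119.9 ± 13.7 CPM with DMSO and 101 ± 15.2 CPM with dTAGV1 (SD, n = 4 each). HSPE1 thus had a log2 fold change of -0.25 (edgeR, BH-adjusted p = 0.0414), and its groups overlapped. HSPD1 had 6.66 ± 0.356 counts per HSPE1 count with DMSO and 5.55 ± 0.807 with dTAGV1. The groups overlapped in this ratio, and the log2 difference was -0.27.

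The regulator and the classic inducible HSP70 genes could not be compared. HSF1 (ENSG00000185122; chromosome 8, 144291591 to 144314722, plus strand, protein-coding) had 1, 0, 2 and 2 counts in the DMSO libraries and 0, 1, 1 and 3 in the dTAGV1 libraries. These 10 counts in 8 libraries are too few for a level or a fold change. HSPA1A (ENSG00000204389; chromosome 6, 31815464 to 31817946, plus strand) and HSPA1B (ENSG00000204388; chromosome 6, 31827735 to 31830255, plus strand), which encode nearly identical stress-inducible HSP70 proteins, were listed at 0 in all 8 libraries on both strands. A count of 0 allows up to 3 counts, or 0.699 to 0.870 per 1000000 counts, and this limit covers counting error only. Reads that map to more than 1 place, 7.59% to 8.30% of all reads, were given to no gene. The same holds for ambiguous reads, which overlap more than 1 gene on the gene strand, 1.84% to 2.11% of all reads.

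Genes around HSPA1A and HSPA1B also had few counts. Within 2 Mb of HSPA1A, 81 of 160 other protein-coding genes (50.6%) had no count in any library, against 208 of 876 (23.7%) on the rest of that chromosome, in a window chosen after values were seen. HSPA1L, next to HSPA1A, was among them. Within 100 kb of HSF1, 3 of 12 protein-coding genes (25%) had no count, against 190 of 668 (28.4%) on the rest of chromosome 8, and the median was 25.5 counts in the 8 libraries against 103. BOP1, on the upstream side, had 1050 counts and DGAT1, which overlaps the end of HSF1 on the other strand, had 30. Whether the authors' reference held further copies of these regions is not given in the sources used here. Reads from such copies would map to more than 1 place and be given to no gene. The 0s and their limit thus speak of reads that map to 1 place and overlap 1 gene. They do not show that the RNA was absent, and the part of either loss was not tested. HSPA1A shared 22.2% of its 50-base words near the 3′ end with another gene of the GENCODE 29 primary assembly, mostly HSPA1B. HSPA1B shared 1.11% and HSF1 0%.

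The members' lowest DMSO values came mostly from 1 library. In DMSO replicate 1, 6 of the 7 tested members were at their lowest among the DMSO libraries, with a median of -0.28 on the log2 scale relative to the group mean. Over all 12618 tested genes that library was the lowest of its group for 30.7%. It was lowest for HSPA8 (-0.50), DNAJB1 (-0.37), HSPH1 (-0.36), BAG3 (-0.28), HSPD1 (-0.15) and HSP90AA1 (-0.11) relative to the DMSO mean, and the exception was HSPB1. DMSO replicate 3 was highest for 5 of 7, and for 24.3% of all tested genes. Without DMSO replicate 1, all 6 members were still called lower, and DNAJB1 had a log2 fold change of -1.22, HSPH1 of -0.61 and HSPD1 of -0.58.

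Among the dTAGV1 libraries, replicate 4 was highest for 4 members, and for 25.8% of all tested genes. It was lowest for HSPB1 (-0.35 relative to the group mean). Replicate 1 was lowest for HSPA8 (-0.47), HSP90AA1 (-0.19) and HSPH1 (-0.16), but above the mean for HSPB1 (0.17) and DNAJB1 (0.13). Over all tested genes that library was lowest for 27.3%. Unmapped reads ranged from 20.4% to 30.3% of the reads in these 4 libraries and from 27.7% to 28.9% with DMSO. Their part in the values of single libraries was not tested.

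**Figure D3:**
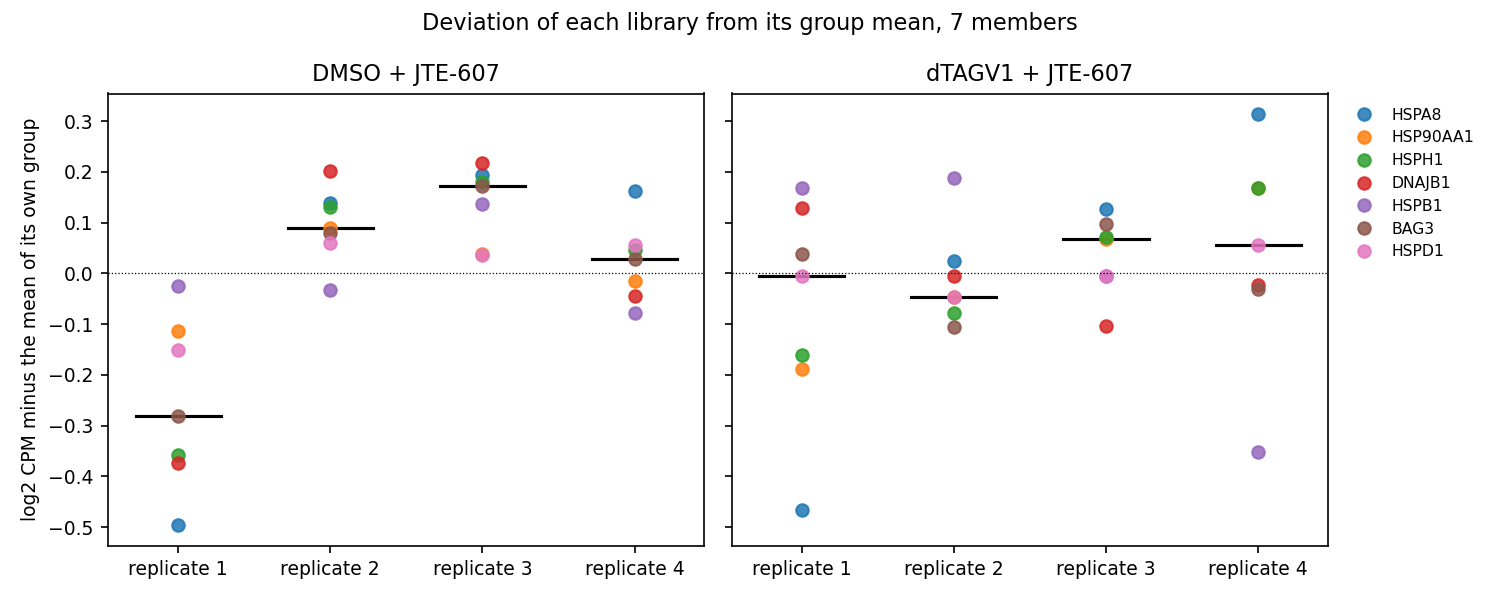
Deviation of log2 CPM from the mean of its own group for the 7 tested members (points) in each library, with the median of the 7 as a bar. DMSO replicate 1 is below the mean for all 7, with a median of -0.28, and the medians of the other libraries run from -0.05 to 0.17.

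The partners of these chaperones were read from 9 further lists, in which a gene can appear more than once. Over all of them, each gene counted once, 26 of 85 tested genes fell (30.6%) and 20 rose, with a median log2 fold change of -0.02. The share that fell is close to the 28.5% of all tested genes, of which 29.4% rose. Among 20 tested genes of the other HSP90 forms and HSP90 co-chaperones, 11 fell and 1 rose, with a median log2 fold change of -0.42 (all tested genes: 0.01). PPID, a cyclophilin co-chaperone, had a log2 fold change of -1.31 and went from 98.2 ± 5 to 39.5 ± 4.18 CPM (SD, n = 4 each). FKBP4, the immunophilin of steroid receptor complexes, fell from 119.5 ± 7.2 to 56.6 ± 0.907 CPM (SD, n = 4 each), and PPP5C, a phosphatase that binds HSP90, had a log2 fold change of -1.06. The single riser was HSP90B1, the HSP90 of the endoplasmic reticulum, with a log2 fold change of 0.54. STUB1 and ST13, which work with HSP70, were at -0.02 and 0.03 and were not called.

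Of 14 tested genes of HSPE1, the cytosolic chaperonin CCT and prefoldin, 8 fell (57.1%) and none rose, with a median of -0.25. Over all tested genes 28.5% fell and 29.4% rose. CCT6A and TCP1, subunits of the CCT ring, fell by 0.46 and 0.45 on the log2 scale, from 431 ± 11 to 314 ± 15.6 CPM and from 243 ± 5.02 to 177 ± 5.42 CPM (SD, n = 4 each). All 5 tested prefoldin genes (PFDN1, PFDN2, VBP1, PFDN4 and PFDN6), whose products pass unfolded actin and tubulin to CCT, were not called and lay between -0.01 and 0.14.

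Heat-inducible HSF1 target genes outside the members were mixed. Of 23 tested, 10 fell (43.5%), 5 rose and 8 were not called, with a median of -0.24. Over all tested genes 28.5% fell and 29.4% rose. Among the called genes, FKBP4 had the largest decrease (-1.08 on the log2 scale), and DNAJB4 (0.59) and JMJD6 (0.35) the largest increases. With library-size scaling 4 genes of this list rose and 13 fell. Several genes of this list also stand in the HSP90 and chaperonin lists. HSPA6, an HSP70 gene known for being nearly silent without stress, was listed at 0 in all 8 libraries. It is named after its values were seen, and it has a close copy in the genome.

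Of 9 tested other HSP70 and HSP110 genes, 2 fell (22.2%) and 2 rose, with a median of -0.03, and both counts are near the shares over all tested genes. HSPA2 had the largest decrease (-1.28) but few reads, at 4.21 ± 0.678 and 1.7 ± 0.746 CPM (SD, n = 4 each). HSPA13, a microsomal HSP70, rose from 18.2 ± 2.86 to 46.9 ± 4.2 CPM (SD, n = 4 each; log2 fold change 1.36). HSPA5, the HSP70 of the endoplasmic reticulum, rose by 0.70 on the log2 scale and was named after its value was seen. HYOU1, also of the endoplasmic reticulum, was at 0.24 and was not called. Of 11 tested DNAJA and DNAJB genes, 2 fell (18.2%) and 4 rose, with a median of -0.02 (all tested genes: 28.5% fell, 29.4% rose). Without DMSO replicate 1, 4 fell and 3 rose, and with library-size scaling 3 fell and 3 rose. DNAJA4 (-0.97) and DNAJB14 (-0.46) had the decreases, and DNAJB9 (1.07), an endoplasmic reticulum co-chaperone, the largest increase. DNAJB11, another endoplasmic reticulum co-chaperone, was at -0.23 and was not called.

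Nucleotide exchange factors other than BAG3 and HSPH1 numbered 9, of which 4 rose and 3 fell (33.3%), with a median of 0.25. Over all tested genes 29.4% rose and 28.5% fell. SIL1, the exchange factor for HSPA5, rose from 23.5 ± 3.5 to 72.0 ± 13.9 CPM (SD, n = 4 each; log2 fold change 1.61), whereas HSPBP1 (-0.76) and BAG5 (-0.41) fell. Among 13 tested mitochondrial chaperones and proteases other than HSPD1, 4 rose and 3 fell, with a median of 0.00. With library-size scaling 1 rose and 4 fell. GRPEL2 (0.79) and HTRA2 (0.39) had the largest called increases, and TRAP1 (-0.33) and HSPE1 (-0.25) the largest decreases. The 7 calls of this list were 4, 3 and 4 without DMSO replicates 2, 3 and 4, and 4 by DESeq2. Without dTAGV1 replicate 4, 2 rose and 3 fell. HSPA9, the mitochondrial HSP70, was at -0.08 and was not called.

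HSF family genes and regulators of HSF1 showed no call downward among 7 tested, and 2 rose. Over all tested genes 28.5% fell and 29.4% rose, so the count that rose is near that share, and 7 genes are few. The genes that rose were EP300 (0.51), an acetyltransferase that acts on HSF1 among many proteins, and HSBP1 (0.27), which binds HSF1 trimers. HSF2, the second heat shock factor, measured 40.7 ± 1.42 and 38.9 ± 1.52 CPM (SD, n = 4 each; log2 fold change -0.06) and was not called. Of 8 other small heat shock protein genes, HSPB8 alone was tested. HSPB8 measured 5.94 ± 1.45 and 8.66 ± 2.88 CPM (SD, n = 4 each) and was not called (edgeR, BH-adjusted p = 0.101). Without dTAGV1 replicate 4 it was called higher. Calls in these lists used edgeR with BH adjustment over all tested genes.

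**Figure D4:**
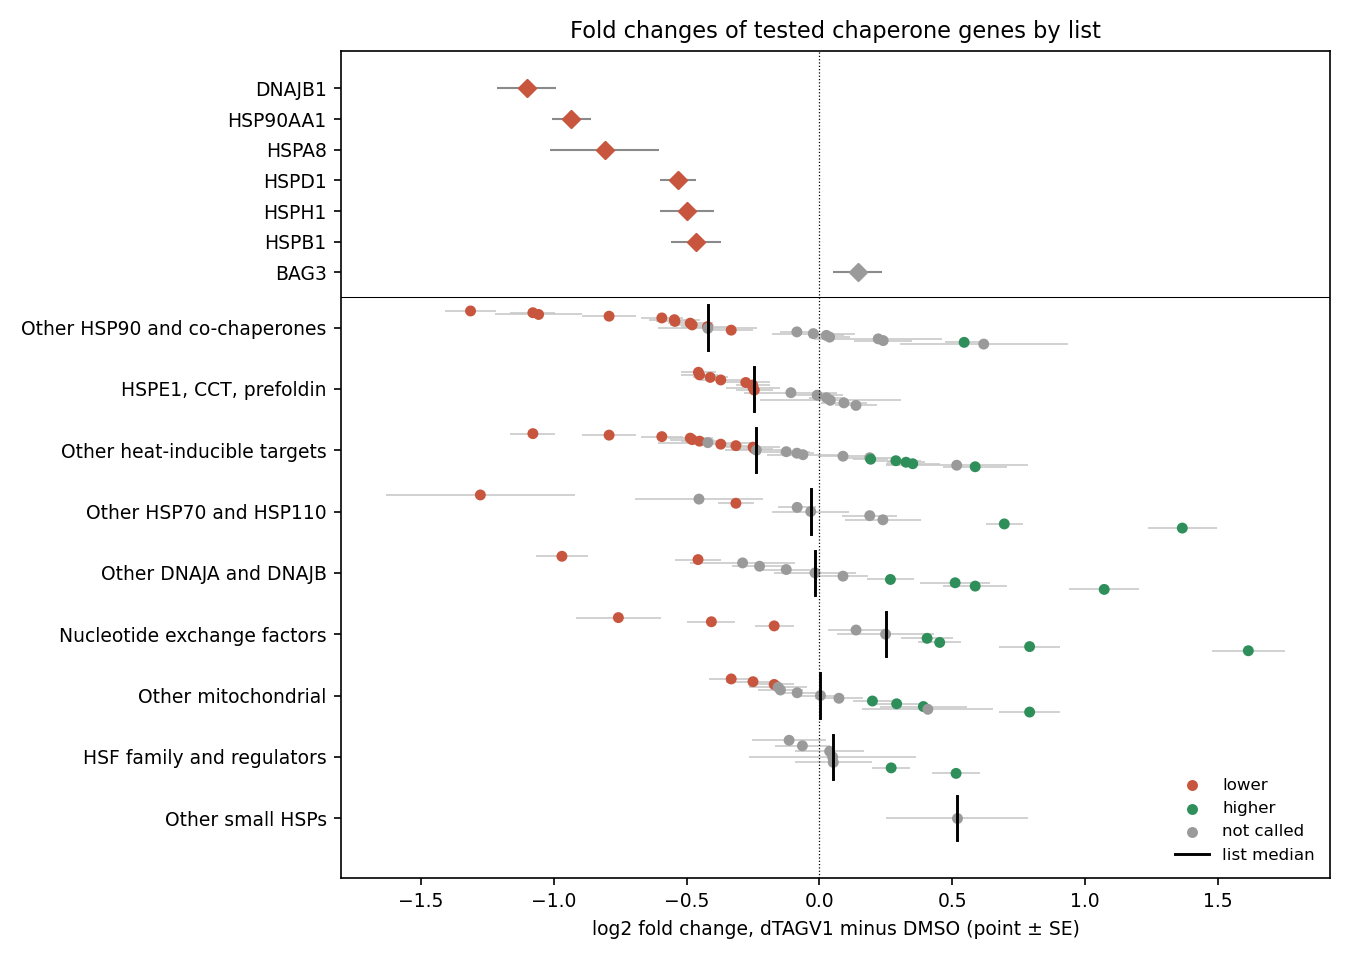
Log2 fold changes (dTAGV1 minus DMSO, point ± SE) of the 7 tested members (diamonds) and of tested genes in 9 other lists (dots), coloured by call, with list medians as bars. Members run from -1.10 for DNAJB1 to 0.14 for BAG3, and the HSP90 co-chaperone list has its median at -0.42.

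The genes whose pattern was most like that of DNAJB1 over the 8 libraries were found among 9050 genes with a symbol and a mean of at least 10 CPM. SPDL1, a mitotic spindle checkpoint gene, had a Pearson correlation of 0.99 in log2 CPM. MYBL2, a cell cycle transcription factor gene, and LYSMD2 also had 0.99. SPDL1 measured 84.7 ± 16.4 CPM with DMSO and 31.3 ± 3.97 CPM with dTAGV1, and MYBL2 99.5 ± 27.3 and 24.1 ± 1.94 CPM (SD, n = 4 each). The 8 libraries share the difference between the groups, so these values describe a pattern and carry no test.

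At the 3′ end, where this assay reads, CFIm is known to bind UGUA. In the last 100 bases of the principal GENCODE 29 transcript, the word TGTA was present in HSPA1B, HSPA8, DNAJB1, BAG3 and HSPD1 and absent from HSF1, HSPA1A, HSP90AA1, HSPH1 and HSPB1. Of 10639 tested genes with such a transcript, 55.5% had it. Among the 6 members that fell, it was present in 3. These are annotated ends, and the ends used in these cells were not measured here.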

How the data were processed

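RNA of 8 libraries was profiled with the Lexogen QuantSeq forward kit, which reads transcript 3′ ends, so no length correction was applied. The deposited values are whole-number read counts per gene, unnormalized, in 3 columns (irrespective of strand, gene strand, opposite strand). The submitters' processing notes name fastp, STAR, HTSeq, FastQC, DESeq2 and GRCh38, and the layout is that of STAR. Versions, annotation and use of molecular identifiers are not given in the sources used here. The 4 totals of reads given to no gene (56.7% to 62.8% of reads) stayed out of all tests.

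Gene-strand counts were fitted with edgeR 4.0.16 in R 4.3.3 (filterByExpr, TMM, robust quasi-likelihood F test). P-values were adjusted by Benjamini-Hochberg over all 12618 tested genes at 0.05. A standard error is the absolute log2 fold change divided by the square root of F. An exact permutation test was run on the ratios of counts, but they were chosen after the genes' values were seen. Its p-values are therefore not given. Figures were drawn with matplotlib 3.10.9. Symbols came from a table holding 61481 of the 78932 identifiers, and all members and list genes matched. Simulated data with 12618 genes, 200 of them changed, gave 43.3% recovery at a log2 change of 0.5, 83.2% at 1 and 8 false calls. In the measured data 57.9% of genes were called, and the adjusted threshold depends on that share. These rates therefore do not carry over to the measured comparison.

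The members and lists were chosen with earlier results of these data known. Named genes were all members. From the other lists they were each called gene past 1 on the log2 scale or, where a direction had none, the 2 called genes furthest from 0. Other names were chosen after their values were seen. Alternatives were other scalings, tools, filters, strands, dispersions, a replicate block and leaving out each library (limma 3.58.1, DESeq2 1.42.0). Pairs of replicates differed by more than sampling noise (chi-square per degree of freedom 1.89 to 5.62).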

Additional observations from a re-analysis of the deposited data

Results flagged for a closer look

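HSPA8 and HSPD1 stood apart in 1 library. In DMSO replicate 1, HSPA8 measured 176 CPM against 273 to 284 CPM in the other 3 DMSO libraries, a gap of 0.899 of the whole range, past Dixon's critical value. HSPD1 measured 714 CPM there against 813 to 827 CPM, a gap of 0.878 of the range. Of 16 groups of values checked, 2 passed this limit, where chance gives about 1 in 20. Without this library both genes were still called lower.

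Counts on the strand opposite to HSPD1 lie outside the comparisons of the report. They numbered 10, 4, 2 and 10 in the DMSO libraries and 30, 27, 36 and 32 in the dTAGV1 libraries, or 1.72 ± 1.13 and 8.41 ± 1.19 per 1000000 gene-strand counts (SD, n = 4 each). HSPE1 and MOB4 overlap HSPD1 on that strand, and their log2 fold changes were -0.25 and -0.63. The part of those genes in these reads was not tested.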

How the results depend on the processing

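Of 119 alternative values of the 7 member fold changes, 118 kept their side of the threshold and none changed sign. The exception was HSPB1 irrespective of strand (-0.11), where 235 of its counts were left. The count of 6 members called stayed at 6, apart from 5 in that setting. Library-size scaling moved the median of all genes by -0.07 and left the direction of each member. Leaving out each library gave -0.95 to -0.68 for HSPA8, -1.22 to -1.04 for DNAJB1, -1.01 to -0.88 for HSP90AA1 and 6861 to 7232 called genes. A mean of at least 100 counts called 4120 genes, with fewer tested. Over all alternatives, calls were 11 to 14 in the HSP90 list (12), 7 to 8 in the chaperonin list (8) and 6 to 7 among nucleotide exchange factors (7). They were 14 to 18 among other HSF1 targets (15). Calls among mitochondrial chaperones (7) were 4 by DESeq2, 4 without a filter and 3 to 6 with a library left out, and those among other small heat shock genes (0) were 0 to 1. The cause was not tested. The difference in the summed share was -0.225 points (0.552% to 0.328%), and -0.239 to -0.217 with a library left out. With all reads as the larger denominator both shares were smaller, 0.228% with DMSO and 0.13% with dTAGV1, a difference of -0.0979 points. The ratios kept their signs with each library left out. Replicate numbers are shared by the groups, but over all tested genes deviations correlated at 0.131, -0.0176, 0.0232 and 0.0340 for numbers 1 to 4. They were therefore not taken as pairs in the main fit. Numbers 1 and 3 correlated best with their own number, and number 1 was lowest in both groups for HSPA8, HSP90AA1 and HSPH1. With the replicate block, 7434 genes and 6 members were called. HSPA8 was then at -0.81 with an SE of 0.0731 (edgeR, BH-adjusted p = 3.68e-09), against an SE of 0.205 without the block. HSF1 had too few counts to test, and HSPA1A and HSPA1B, also when summed, had none.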
